A study of Mus musculus with 4 samples.

Results

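Collagens are the main structural proteins of connective tissue, and their genes were followed here through every probe set whose single annotated symbol has the form Col, a number, a and a number. The rule found 82 probe sets for 42 genes, of 45101 probe sets on the array and 18193 genes with a symbol of their own. It used the names alone, with no measured value. A gene counted as measured when at least 1 of its probe sets had a mean level over the 4 arrays at or above 66.1, the median of the array's 45037 probe sets other than controls. That held for 45 probe sets of 29 collagen genes, among 11744 measured genes in all.

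RNA came from primary cultures of mouse palatal mesenchyme, the connective tissue core of the developing palatal shelves, taken from outbred wild-type embryos at embryonic day 14. The untreated culture (1 array) received nothing, and the TGF-beta2 culture (1 array) received the growth factor for 120 minutes. The SB431542 culture (1 array) had that inhibitor of the TGF-beta type I receptor kinase for 60 minutes and then TGF-beta2 for 120 minutes. The 5Z-7-Oxozeaenol culture (1 array, oxozeaenol below) had that inhibitor of the Tak1 kinase on the same schedule. None of the 4 arrays is of an inhibitor without TGF-beta2, and the inhibitor doses are unknown here. With 1 array per treatment there is no spread between replicates, so no test was made, and all differences are between single arrays.

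A collagen molecule is a triple helix of 3 chains, each built of short repeats that contain glycine. Fibrillar collagens (types I, II, III, V and XI) pack into the fibrils that carry load, type IV and VIII collagens form sheet-like networks, and type VI forms beaded filaments around cells. Fibril-associated collagens decorate fibrils, and transmembrane collagens and multiplexins sit at cell surfaces and basement membranes. TGF-beta is a classical inducer of collagen synthesis in fibroblasts, acting through Smad proteins over hours to days, and the palatal shelves grow and fuse under its control.

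Array medians lay between 66.4 and 72.8, and the arrays were taken as already scaled to a common level. Of 6 palatal mesenchyme markers, 5 were measured, and the summed signal of all 6 was 31811 to 39984 over the arrays. The sum hides differences between them: with TGF-beta2 over untreated, 4 of the 5 lay below 0. Their log2 differences ran from -1.09 (Pdgfra) to 0.11 (Vim), with a median of -0.34, where all measured genes had a median of -0.03. Osr2, a regulator of palate growth, was the marker under the filter. The 8 epithelial markers summed to 1830 to 1936 on the untreated, TGF-beta2 and SB431542 arrays and to 5851 on the oxozeaenol array. These markers were not alike either. With oxozeaenol over untreated, the 7 measured ones ran from -0.01 (Epcam) to 3.78 (Krt14), with a median of 0.80. With TGF-beta2 over untreated they ran from -0.86 (Krt19) to 0.96 (Krt14), with a median of -0.15. The 5 macrophage and blood markers on the array, all measured, summed to 34005 to 38397. Of the others, 2 of 6 cartilage, 3 of 5 bone, 1 of 6 endothelial, 3 of 6 skeletal muscle and 0 of 2 glial markers on the array were measured. Their sums ran from 809 to 1146 for cartilage, 1224 to 2548 for bone, 332 to 466 for endothelium, 1240 to 1540 for muscle and 60.0 to 144 for glia, and no marker was listed at 0. Because each array is of a whole culture, fewer cells of a type and less RNA per cell cannot be told apart.

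Promoter windows from RefSeq (GRCm38.p6), 250 bases before the annotated start, were matched to 33 of the 42 genes by symbol. The 3 windows below are shown because these genes carry the contrast in the data: Col1a2, abundant and nearly level on all arrays, Col27a1, highest with TGF-beta2, and Col5a3, lowest with oxozeaenol. Smad proteins and Sp1 are known to act on the human COL1A2 promoter. Capitals mark CAGAC, the core of a Smad-binding element, and GGGCGG, the GC box bound by Sp1, on either strand.
Col1a2 (chr6:4505368-4505617, plus strand): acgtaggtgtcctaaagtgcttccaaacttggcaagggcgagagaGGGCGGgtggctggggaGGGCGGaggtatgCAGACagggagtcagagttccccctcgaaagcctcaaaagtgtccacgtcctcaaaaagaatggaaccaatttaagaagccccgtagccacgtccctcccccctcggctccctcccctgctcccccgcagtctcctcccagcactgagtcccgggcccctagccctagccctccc
Col27a1 (chr4:63215162-63215411, plus strand): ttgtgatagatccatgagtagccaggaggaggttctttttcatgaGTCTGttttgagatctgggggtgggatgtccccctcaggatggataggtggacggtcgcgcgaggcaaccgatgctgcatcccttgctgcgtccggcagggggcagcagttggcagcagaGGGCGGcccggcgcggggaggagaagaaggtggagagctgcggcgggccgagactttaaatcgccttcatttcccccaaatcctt
Col5a3 (chr9:20815068-20815317, minus strand): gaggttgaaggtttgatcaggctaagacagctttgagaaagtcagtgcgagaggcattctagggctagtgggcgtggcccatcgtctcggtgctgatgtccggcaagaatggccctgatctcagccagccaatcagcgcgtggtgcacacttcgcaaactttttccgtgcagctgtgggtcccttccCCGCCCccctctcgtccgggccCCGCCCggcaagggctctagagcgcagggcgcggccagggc
The Col1a2 window held 1 CAGAC, 175 to 171 bases before the start, and 2 GC boxes. The Col27a1 window held 1 CAGAC, on the opposite strand 205 to 201 bases before the start, and 1 GC box. The Col5a3 window held 2 GC boxes, both on the opposite strand, and no CAGAC. These matches do not overlap each other in the 3 windows.

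Across the collagen windows, CAGAC occurred for 15 of 33 genes (45.5%) against 42.2% of all 32851 windows, and GGGCGG for 20 of 33 (60.6%) against 32.7%. The CCAAT box was present for 13 of 33 (39.4%) against 33.9%, and the TATA motif TATAAA for 5 of 33 (15.2%) against 12.4%. TGACTCA, the site of AP-1 factors, was in the window of Col6a1 alone (1 of 33, 3.03%) against 4.46% of all windows. The percentages are not quite alike: a collagen gene counted when any of its windows matched (36 windows for 33 genes), and the background counted single windows. Both strands were searched, the motifs were picked with earlier results known, and a match describes letters, not binding.

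The fibrillar chains that make up most of a mesenchymal matrix were at nearly the same level on all 4 arrays. Col1a1 and Col1a2 encode the chains of type I collagen, the chief protein of bone, skin and tendon. Col1a1 read 10690 untreated, 12926 with TGF-beta2, 12636 with SB431542 and 12362 with oxozeaenol. Col1a2 read 17662, 19644, 20569 and 18742 in the same order. Col3a1, the chain of type III collagen of soft tissues, read 16755, 18117, 19220 and 18341. In these brightest probe sets the untreated array was the lowest, and the highest array stood above it by 0.27, 0.22 and 0.20 on the log2 scale. The order did not hold in others: a second Col1a1 probe set read 10452, 10419, 11333 and 10281, lowest with oxozeaenol. A second Col3a1 probe set read 4341, 4198, 4278 and 5331, lowest with TGF-beta2 and highest with oxozeaenol.

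Col5a1 and Col5a2, chains of type V collagen, which nucleates fibrils and limits their width, were as level in their brightest probe sets. Col5a1 read 12545 untreated, 13574 with TGF-beta2, 14293 with SB431542 and 11968 with oxozeaenol. Col5a2 read 15640, 17184, 18019 and 16284, so SB431542 had the highest reading of both in their brightest probe sets. The 3 other measured probe sets of these genes were highest with TGF-beta2 instead. For Col5a1 they read 10252, 10539, 9283 and 8882, and 1113, 1568, 1326 and 1287, and for Col5a2 11627, 13079, 12310 and 12113. The Col5a1 probe set that read 1113 untreated had a log2 difference of 0.49 with TGF-beta2. The small differences of Col1a2 and Col3a1 with TGF-beta2, in their brightest probe sets, depend on how arrays are scaled. With quantile normalization, the log2 difference of Col1a2 went from 0.15 to -0.005 and that of Col3a1 from 0.11 to -0.03, and a dimmer probe set of Col1a2 differed by -0.35 in the deposited values.

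Col27a1 differed most among the fibrillar genes. It encodes type XXVII collagen, a chain of thin fibrils described in cartilage and other developing tissue. It read 563 untreated, 1042 with TGF-beta2, 465 with SB431542 and 525 with oxozeaenol. The TGF-beta2 array stood above all others, and the inhibitor arrays were just below the untreated one. The log2 differences were 0.86 for TGF-beta2 over untreated, -1.13 for SB431542 over TGF-beta2 and -0.96 for oxozeaenol over TGF-beta2. Of the 11744 genes, 132 had a larger positive difference with TGF-beta2 and 105 a larger negative one with SB431542. A dimmer probe set had the same shape with smaller steps, at 312, 409, 283 and 256, or 0.37, -0.50 and -0.64 in the same order.

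Beside Col27a1, the chondrocyte regulator Sox9 read 389 untreated, 631 with TGF-beta2, 335 with SB431542 and 468 with oxozeaenol. Acan, the cartilage proteoglycan aggrecan, read 260, 367, 342 and 179. The other 4 cartilage markers (Comp, Matn1, Matn3 and Cnmd) were under the filter, and the part of cartilage-like cells in the Col27a1 readings was not tested. Col2a1, the defining collagen of cartilage, was nearly level at 386, 443, 400 and 431. Col11a1, its partner in cartilage fibrils, read 2026, 1999 and 1946 on the first 3 arrays and 2355 with oxozeaenol, and its other probe set was also highest there.

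Col5a3, another type V chain of narrower distribution, differed in another way. It read 2036 untreated, 2156 with TGF-beta2, 1640 with SB431542 and 1175 with oxozeaenol. The oxozeaenol array was the lowest, by -0.86 on the log2 scale against TGF-beta2 and by -0.78 against untreated. The other Col5a3 probe set was under the filter on average, with readings of 7.0 to 12.0, and gives no second view.

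**Figure D1:**
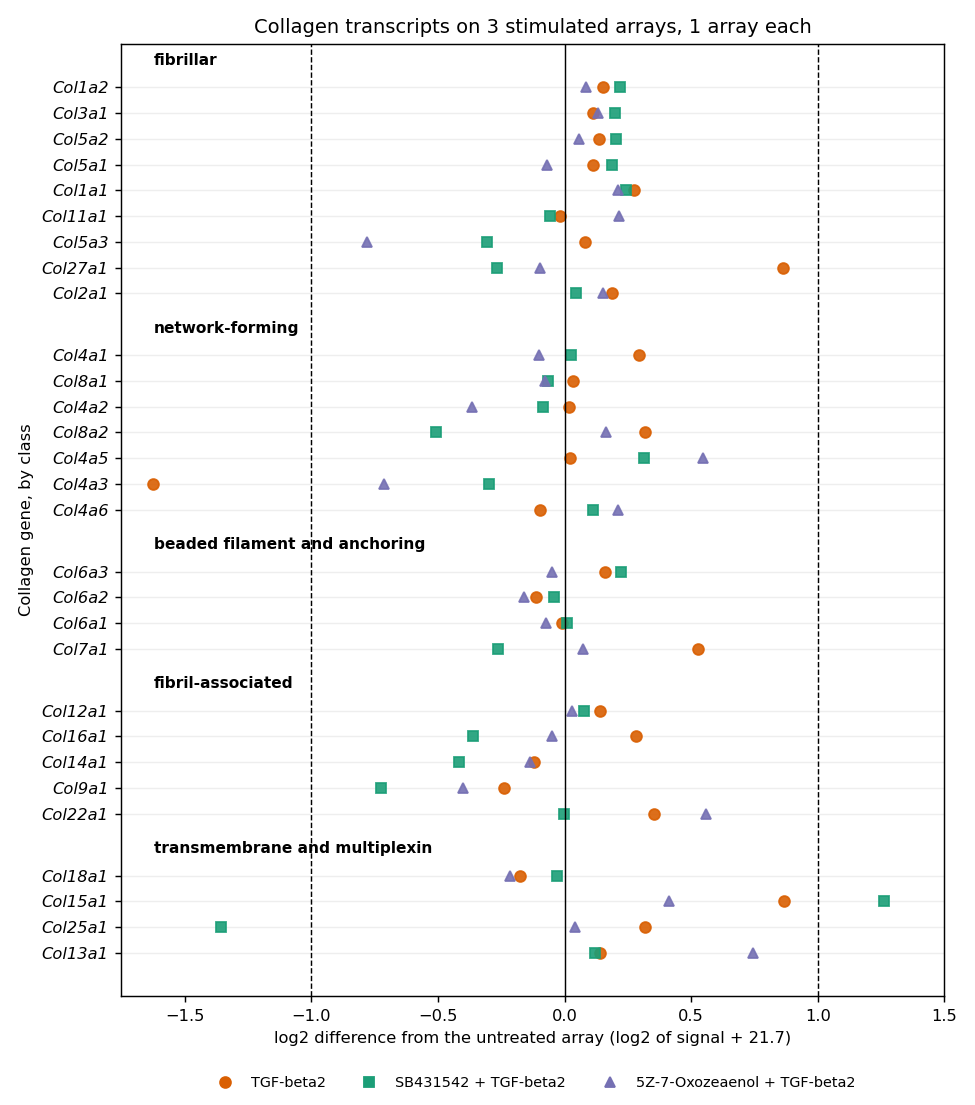
Log2 difference from the untreated array (x axis) for each of the 29 measured collagen genes (rows, by class and then by mean signal), with 1 point per stimulated array: circles TGF-beta2, squares SB431542 with TGF-beta2, triangles oxozeaenol with TGF-beta2; dashed lines mark 2-fold. Type I, III and VI chains cluster near 0, Col27a1 is at 0.86 with TGF-beta2 only, and the points past 2-fold belong to Col4a3, Col15a1 and Col25a1.

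Among network-forming collagens, the basement membrane chains Col4a1 and Col4a2 were close to each other but not alike in every comparison. These genes lie head to head: the RefSeq starts are at 11312826 (Col4a1, minus strand) and 11312805 (Col4a2, plus strand) of chromosome 8, so both fall within 22 bases, in capitals in this 30-base stretch.
Col4a1 and Col4a2 starts (chr8:11312801-11312830, plus strand, GRCm38.p6): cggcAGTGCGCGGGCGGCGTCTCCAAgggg
Col4a1 read 6878 untreated, 8434 with TGF-beta2, 7009 with SB431542 and 6416 with oxozeaenol. Col4a2 read 4245, 4298, 3995 and 3288. With TGF-beta2 the log2 difference was 0.29 for Col4a1 and 0.02 for Col4a2, while with oxozeaenol over TGF-beta2 both were lower, by -0.39 and -0.38. The dimmer Col4a1 probe set read 1119, 1818, 1352 and 1066, a difference of 0.69 with TGF-beta2, so both Col4a1 probe sets were highest on that array.

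Type IV chains of specialised membranes gave lower signals. Col4a5 read 453 untreated, 460 with TGF-beta2, 569 with SB431542 and 672 with oxozeaenol, and its head-to-head neighbour Col4a6 read 63.9, 58.4, 70.8 and 77.4. Both were highest with oxozeaenol, with log2 differences over untreated of 0.55 and 0.21. Col4a3 read 120 untreated, 24.3 with TGF-beta2, 93.7 with SB431542 and 65.0 with oxozeaenol. The single low reading with TGF-beta2, under the filter level, gave both a difference of -1.63 over untreated and one of 1.33 for SB431542 over TGF-beta2. Its size hangs on the pseudocount, at -2.06 with the 10th percentile and -1.01 with the median. Col4a4, the partner chain of Col4a3, was under the filter.

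Col8a1 and Col8a2 encode the chains of type VIII collagen, which forms hexagonal networks. Col8a1 was level in its brightest probe set, at 5132 untreated, 5259 with TGF-beta2, 4900 with SB431542 and 4861 with oxozeaenol. Its next probe set read 5237, 4694, 4822 and 4434 in the same order, highest untreated. A dim one read 65.7, 105, 97.2 and 106, a log2 difference of 0.54 with TGF-beta2 over untreated. Col8a2 read 2374, 2968, 1663 and 2660, with SB431542 the lowest array. Its log2 difference was 0.32 for TGF-beta2 over untreated, -0.83 for SB431542 over TGF-beta2 and 0.67 for oxozeaenol over SB431542. Among the collagen genes with a mean signal over 1000 it had the most negative difference with SB431542, and no second probe set of it was on the array.

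Of all measured collagen genes, Col6a1 varied least in its brightest probe set. With Col6a2 and Col6a3 it encodes the chains of type VI collagen. Col6a1 read 8701 untreated, 8642 with TGF-beta2, 8754 with SB431542 and 8276 with oxozeaenol, a range of 0.08 on the log2 scale over all 4 arrays. Col6a2 read 10144, 9377, 9850 and 9083, and Col6a3 read 11686, 13044, 13635 and 11300. A second Col6a2 probe set read 3622, 4495, 4253 and 4048, a difference of 0.31 with TGF-beta2 where the brightest had -0.11. Col7a1, the anchoring fibril that ties epithelial basement membrane to the tissue below, read 264, 390, 217 and 279. It was highest with TGF-beta2 (0.53 over untreated) and lowest with SB431542 (-0.79 against TGF-beta2). Keratinocytes are a known source of Col7a1. The epithelial marker sums on the same arrays were 1936, 1830, 1911 and 5851, and the part of epithelial cells in the Col7a1 readings was not tested.

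In SB431542 over TGF-beta2, all 5 measured fibril-associated genes lay below 0, with a median log2 difference of -0.35, where 55.2% of all genes lay above 0 with a median of 0.03. Col16a1, found on thin fibrils, read 1774 untreated, 2165 with TGF-beta2, 1375 with SB431542 and 1715 with oxozeaenol, and was the largest of these at -0.65. Col12a1, a fibril surface collagen of dense tissue, was level at 15147, 16681, 15999 and 15474. Its difference with SB431542 was -0.06, and its dimmer probe set differed by 0.22, so the shared direction does not extend to every probe set. Col14a1 read 188, 171, 135 and 169, and Col9a1, a cartilage chain, read 131, 108, 71.0 and 94.1. Col22a1 read 58.3, 80.4, 58.3 and 96.2, near the filter level.

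Transmembrane collagens and multiplexins were dim except for Col18a1. Col18a1, the basement membrane collagen that yields endostatin, was level at 1055 untreated, 932 with TGF-beta2, 1033 with SB431542 and 905 with oxozeaenol. Col15a1, the other multiplexin, read 70.7, 147, 200 and 101. All 3 stimulated arrays were above the untreated one, SB431542 the most (1.26 on the log2 scale), and 1 probe set measured it. Col25a1, a transmembrane collagen, read 115, 148, 31.5 and 118, so the low SB431542 reading sets its difference of -1.68 against TGF-beta2. The dimmer Col25a1 probe set, under the filter, read 44.7, 56.1, 25.2 and 32.4 and was also lowest there. Col13a1 read 52.4, 60.1, 59.0 and 102, highest with oxozeaenol.

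**Figure D2:**
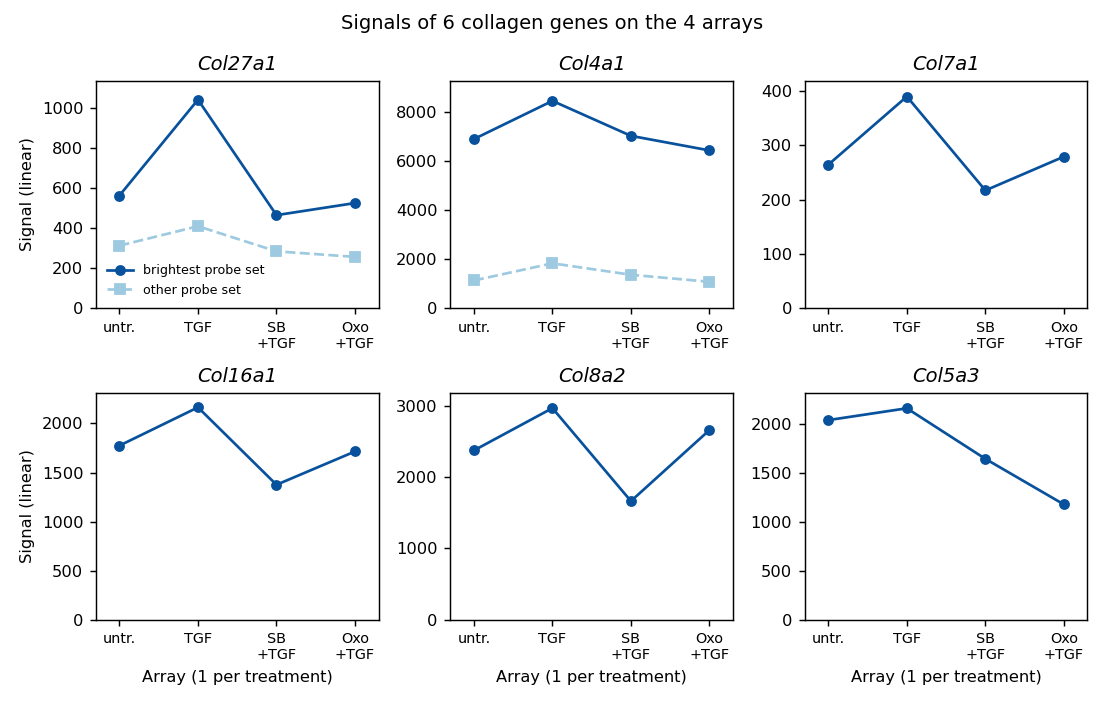
Linear signal (y axis, from 0) on the 4 arrays (x axis, 1 array per treatment; untr. untreated, TGF TGF-beta2, SB SB431542, Oxo oxozeaenol) for 6 genes chosen after their values were seen, with the brightest probe set as solid circles and another measured probe set as dashed squares; lines only join readings of a probe set. Col27a1, Col4a1, Col7a1 and Col16a1 peak with TGF-beta2, Col8a2 is lowest with SB431542, and Col5a3 steps down to 1175 with oxozeaenol.

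The first comparison asks which collagen transcripts differ 120 minutes after TGF-beta2. No collagen gene was 2-fold higher, as 0.673% of all genes were. Col15a1 (0.87) and Col27a1 (0.86) came closest, followed by Col7a1 (0.53). Col4a3 was the 1 gene at least 2-fold lower, as were 0.366% of all genes. In either direction that is 1 of 29, against a background of 1.04% of all 11744 genes at least 2-fold apart. In all, 21 of 29 collagen genes lay above 0 and 8 below, with a median of 0.14, where 44.0% of all genes lay above 0 with a median of -0.03. The lean of the bright genes was small: the 16 with a mean signal over 1000 had a median of 0.12 and ranged from -0.11 (Col6a2) to 0.32 (Col8a2). With quantile normalization the collagen median was 0.02, with 18 genes above 0 and 10 below.

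The TGF-beta2 array was the highest of the 4 for 12 of the 29 collagen genes (41.4%), against 19.7% of all measured genes. It was so by at least 0.25 on the log2 scale over each other array for 5 genes: Col27a1, Col7a1, Col16a1, Col4a1 and Col25a1. The same margin held for 4.26% of all genes. Each of the 5 structural classes has 1 of them: a fibrillar, an anchoring, a fibril-associated, a network-forming and a transmembrane chain. The same 5 met the margin with median centring and with quantile normalization. Col25a1 did not with the pseudocount at the median of all values. The 3 differences behind this pattern share the TGF-beta2 array, so 1 high reading there gives all of them.

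Dependence on the receptor kinase was addressed with SB431542. With SB431542 over TGF-beta2 alone, Col27a1 (-1.13) and Col25a1 (-1.68) were at least 2-fold lower and Col4a3 (1.33) was higher. This is 3 of 29 genes, against 1.8% of all genes (1.18% lower and 0.613% higher). Col8a2 (-0.83), Col7a1 (-0.79) and Col16a1 (-0.65) were at least 1.5-fold lower, which makes 6 of 29 genes at least 1.5-fold apart, against 7.59% of all genes. The remaining 23 genes were within 1.5-fold, type I, III, V (Col5a1 and Col5a2) and VI chains among them, and the median was -0.04. Of the genes past 2-fold, Col27a1 alone had a mean signal over 250. When its 2 probe sets were averaged, its difference was -0.81, short of 2-fold, and with the pseudocount at the median Col4a3 fell short as well, at 0.80.

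Tak1 was addressed by oxozeaenol over TGF-beta2 alone. No collagen gene was 2-fold apart, 0 of 29 against 3.99% of all genes. Col27a1 (-0.96) and Col5a3 (-0.86) were the lowest, and Col4a3 (0.91) and Col13a1 (0.60), both dim, the highest. Col27a1 passed 2-fold with median centring and with quantile normalization. Direction leaned down: 22 of 29 collagen genes lay below 0, with a median of -0.08, where 57.4% of all genes lay above 0 with a median of 0.05. Among the 16 collagen genes with a mean signal over 1000, 14 lay below 0, with a median of -0.11. For all measured genes that bright, 51.2% lay above 0, with a median of 0.006. With quantile normalization 18 of 29 lay below 0, and Col1a1, Col1a2, Col5a2 and Col6a2 changed sign, all from values between -0.08 and 0. Col3a1 changed sign with median centring, from 0.02 to -0.06.

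Set against each other, the inhibitor arrays differed by 2-fold for Col25a1, 1 of 29 genes against 2.81% of all genes, higher with oxozeaenol by 1.40. Col8a2 (0.67) and Col13a1 (0.62) were higher with oxozeaenol, and Col15a1 (-0.85) and Col5a3 (-0.47) lower. Over untreated, SB431542 had Col15a1 (1.26) higher and Col25a1 (-1.36) lower, 2 of 29 against 0.851%. With the pseudocount at the median these became 0.94 and -0.86, and the Col25a1 difference between inhibitors 0.89, all short of 2-fold. Oxozeaenol over untreated had 0 of 29 against 3.0%, with Col5a3 (-0.78) the lowest and Col13a1 (0.74) the highest. The collagen medians over untreated were -0.001 with SB431542 and 0.03 with oxozeaenol. Comparisons that share an array are not independent of each other.

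**Figure D3:**
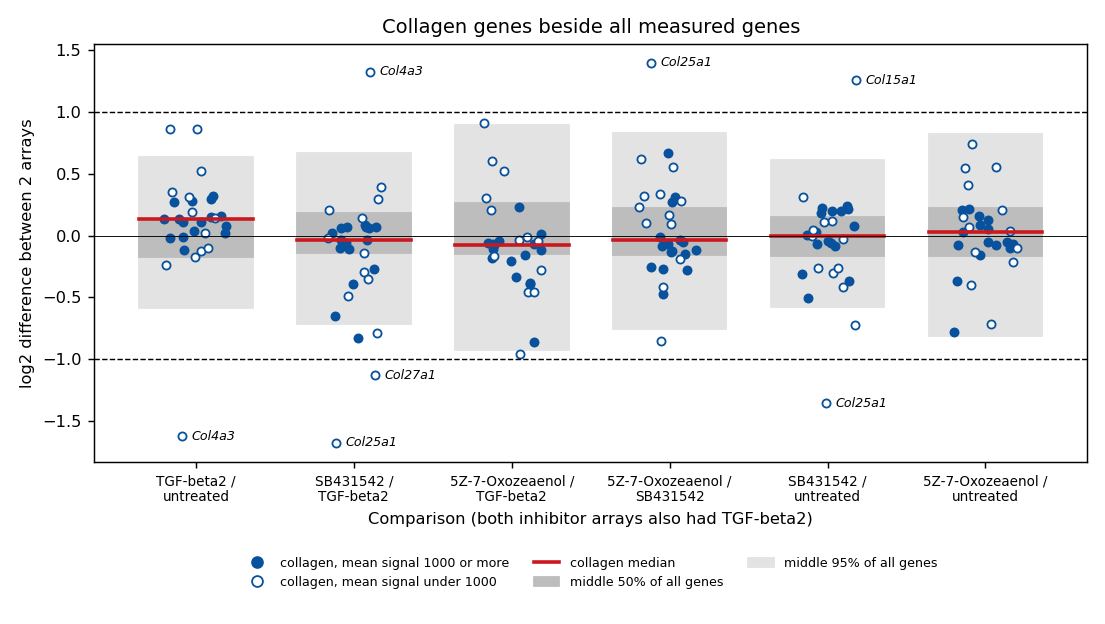
Log2 differences (y axis) in the 6 comparisons (x axis) for the 29 collagen genes as points (filled where the mean signal is 1000 or more, open below), the collagen median as a red bar, and the middle 50% and 95% of all 11744 genes as dark and light boxes; dashed lines mark 2-fold. The labelled genes past 2-fold, Col4a3, Col25a1, Col15a1 and Col27a1, are all drawn open, and the collagen median lies between -0.08 and 0.14.

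Differences were wider among dim collagen genes. Over any pair of arrays, 4 of 29 collagen genes were at least 2-fold apart (Col4a3, Col15a1, Col25a1 and Col27a1), against 6.7% of all genes. All 16 collagen genes with a mean signal over 1000 were within 2-fold on all arrays, as were 96.3% of the 4399 measured genes that bright, and 13 of the 16 were within 1.5-fold, as were 87.7%. The 3 beyond 1.5-fold were Col5a3, Col8a2 and Col16a1. Of the 8 collagen genes under 250, 5 were within 2-fold (62.5%), against 88.8% of all genes that dim.

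**Figure D4:**
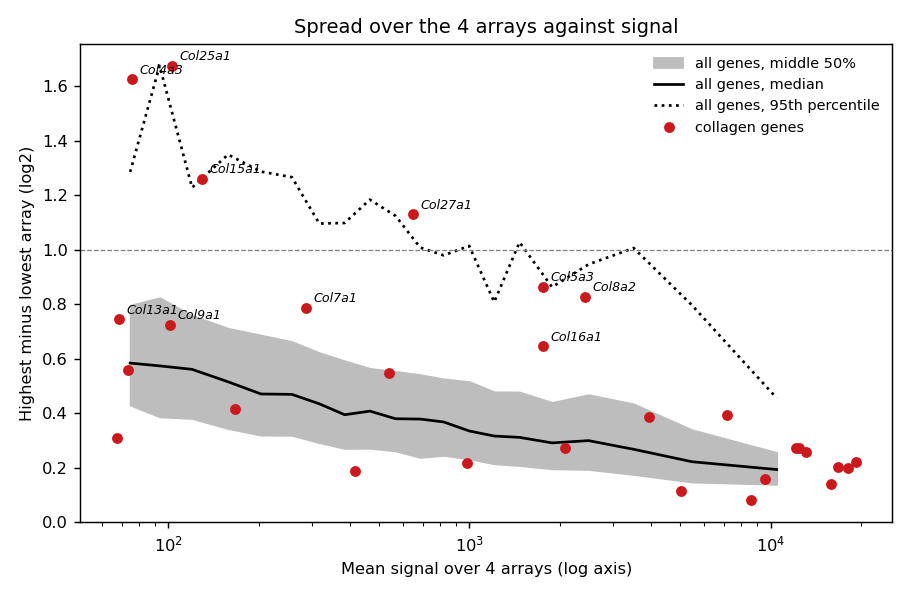
Highest minus lowest array on the log2 scale (y axis) against mean signal (x axis, log scale) for the 29 collagen genes (red) over all measured genes (grey band, middle 50%; solid line, median; dotted line, 95th percentile, in 20 bins of signal). Col27a1 (1.13), Col4a3 (1.63) and Col25a1 (1.68) lie above the dotted line, Col15a1 (1.26) lies on it, and the type I, III and VI chains lie between 0.08 and 0.27.

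By their brightest probe sets, chains that assemble together differed from their partners by less than 0.15 within type I and between Col5a1 and Col5a2. Col1a1 and Col1a2 were never more than 0.12 apart in log2 difference over the 6 comparisons, and Col5a1 and Col5a2 never more than 0.13. Among type VI chains the largest gap was 0.27, between Col6a2 and Col6a3. The gap reached 0.28 for Col4a1 and Col4a2, 0.27 for Col2a1 and Col11a1, and 0.34 for Col4a5 and Col4a6. It was widest for Col8a1 and Col8a2 (0.73) and for Col5a1 and Col5a3 (0.71), where 1 chain was level and the other was not.

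Probe sets of a gene give a check on reading error within these arrays, though not between cultures. For 13 collagen genes with at least 2 measured probe sets there were 16 pairs with the brightest, or 96 pair values over the 6 comparisons. The gap in log2 difference had a median of 0.14 and a maximum of 0.63, in Col27a1 with SB431542, and the sign was shared in 66 of 96. The differences of the abundant fibrillar and type VI chains are of the size of this gap, and the widest gap is that of Col27a1 itself. In the 3 comparisons with the TGF-beta2 array the Col27a1 differences exceed the median gap in both probe sets, and in the other 3 they do not.

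Among genes that make, process, bind or cut collagen, few were 2-fold apart, which is near the share of all genes. Of 44 such genes on the array 40 were measured, and in 5 of the 6 comparisons 0 of 40 were 2-fold apart, against 0.851% to 3.99% of all genes. With oxozeaenol over untreated 1 of 40 was, against 3.0% of all genes. It was Lair1, a collagen receptor of leukocytes, which read 302 untreated, 163 with TGF-beta2, 196 with SB431542 and 114 with oxozeaenol (-1.25 over untreated). Of the 5 macrophage and blood markers, 4 were also lower with oxozeaenol than untreated, by -0.24 (Csf1r) to -0.59 (Ptprc), and Lyz2 was level at 0.03. With TGF-beta2 over untreated, where Lair1 differed by -0.80, these markers lay between -0.22 and 0.02. The part of leukocyte number in the Lair1 readings was not tested.

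For folding and modification, 17 of 18 genes were measured, with a median of 0.03 with TGF-beta2. Serpinh1, the collagen chaperone HSP47, was level at 17244 untreated, 17557 with TGF-beta2, 17930 with SB431542 and 16879 with oxozeaenol. Plod2, which hydroxylates lysines used for crosslinks, read 3396, 5249, 2957 and 4331, a difference of 0.62 with TGF-beta2 and -0.82 with SB431542. Among 9 of 10 processing and crosslinking genes, Lox, the lysyl oxidase, was level at 16502, 17555, 19842 and 17898. Bmp1, the protease that removes procollagen C-propeptides, read 1591, 1957, 1276 and 1307. Plod2 and Bmp1 were the 2 of 40 genes highest on the TGF-beta2 array by at least 0.25 over each other array, 5.0% against 4.26% of all genes.

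Of 9 collagen receptor genes 8 were measured. Ddr1, a receptor tyrosine kinase for collagen found mainly in epithelium, read 4138 untreated, 6268 with TGF-beta2, 4567 with SB431542 and 7445 with oxozeaenol. It was higher on the TGF-beta2 and oxozeaenol arrays, where the epithelial marker sum was at its lowest (1830) and its highest (5851), and the part of epithelial cells in these readings was not tested. Itgb1, the shared integrin beta chain, was level between 6002 and 6651. Of 7 collagenase and gelatinase genes 6 were measured, and the widest of their log2 differences was -0.59, in Mmp9, a gelatinase, with SB431542 over untreated. Mmp13, the main mouse collagenase, read 10278, 9759, 10746 and 9659, and Mmp14, the membrane-bound collagenase, read 8824, 10028, 8319 and 8065.

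The 13 collagen genes without a measured probe set had 26 probe sets, with readings from 1.6 to 118. They were Col10a1, Col11a2, Col17a1, Col19a1, Col20a1, Col23a1, Col24a1, Col26a1, Col4a4, Col6a4, Col6a5, Col9a2 and Col9a3. The reading of 118 belonged to Col17a1, the hemidesmosomal collagen of basal epithelial cells, which read 7.9 untreated, 22.9 with TGF-beta2, 43.9 with SB431542 and 118 with oxozeaenol. On the same arrays the 8 epithelial markers summed to 1936, 1830, 1911 and 5851, and the part of epithelial cells in the Col17a1 readings was not tested. The probe sets closest to the filter were those of Col13a1 (66.6) and Col4a6 (67.3) on the inside and Col14a1 (58.9) and Col20a1 (57.2) on the outside.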

How the data were processed

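The deposited files hold linear intensities from Affymetrix 3′ expression arrays, 1 value per probe set and array, for 4 cultures. Each labelled target was made from 500 ng of RNA, per the labels' protocols. The submitters' processing notes name GCOS, the scanner maker's software, and which version, summary algorithm and settings were used is unknown here. On the untreated array the mean without the lowest and highest 2% of values was 500.0, and it was not computed for the others. The arrays were therefore taken as scaled before deposit.

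Here 64 control probe sets were left out, and values became log2(intensity + 21.7), the pseudocount being the 25th percentile, so folds of dim genes are understated. Probe sets whose mean log2 value reached the median (signal 66.1) were kept, and the brightest stood for its gene. Symbols came from the platform annotation, and all 42 collagen symbols matched RefSeq by gene ID. Single arrays allow no test, so genes were counted at 2-fold beside the percentage of all genes, with Python 3.11.15, pandas 2.3.3 and NumPy 2.4.6. The counting step was run on simulated data with little noise and large changes in bright genes only, which does not bear on calls of dim genes. The number of arrays limits the precision.

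Genes named were the collagen genes at least 2-fold apart in any comparison, the 3 brightest of each class, their partner chains, Col7a1 and Col17a1, and, of the pathway lists, those 2-fold apart and some of the 6 brightest. Col2a1, Col4a5, Col4a6, Col5a3, Col9a1, Col11a1, Col13a1, Col22a1, Plod2, Bmp1, Ddr1, Itgb1, Mmp9 and Mmp14 fall outside this rule and were chosen after their values were seen. The members, lists and motifs were chosen with earlier results of these data known. Alternatives were the pseudocount, the filter, the scaling, the averaging of probe sets and a 1.5-fold rule.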

Additional observations from a re-analysis of the deposited data

How the results depend on the processing

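No result past 2-fold changed direction with median centring or quantile normalization, nor did Col27a1 when its probe sets were averaged. The other alternatives could not have reversed one. A pseudocount, a filter or the 1.5-fold rule leaves the sign as it is, and Col4a3, Col15a1 and Col25a1 had 1 measured probe set each. Of 90 recomputed counts and medians, 70 stayed within 1.5 times or 0.1 (log2) of the value reported. The other 20 were these, the counts with the percentage of all genes called under the same setting in brackets. With TGF-beta2 over untreated, the count of collagen genes at least 2-fold apart was 2 of 42 with no filter (3.45%). It was 0 of 20 with the filter at the 75th percentile (0.662%) and 3 of 29 with the 1.5-fold rule (5.48%). The median was 0.0235 with quantile normalization. With SB431542 over TGF-beta2 the count was 1 with the stricter filter (1.18%) and 6 with the 1.5-fold rule (7.59%). With oxozeaenol over TGF-beta2 it was 1 with the pseudocount at the 10th percentile (Col4a3, 4.69%) and with no filter (Col17a1, 6.04%). It was also 1 with median centring and with quantile normalization (Col27a1 both times, 4.02% and 3.95%), and 4 with the 1.5-fold rule (12.8%). Between inhibitors the pseudocount at the median gave 0 (1.86%), and the count was 3 with no filter (5.5%). It was 0 with the stricter filter (1.85%) and 4 with the 1.5-fold rule (10.1%). With SB431542 over untreated the larger pseudocount gave 0 (0.341%), no filter 4 (3.93%) and the stricter filter 0 (0.197%). With oxozeaenol over untreated it was 2 with no filter (5.08%) and 3 with the 1.5-fold rule (11.2%). The stricter filter left 20 genes, without Col4a3, Col15a1 and Col25a1. Of the values for single genes, 676 moved by less than 0.25 on the log2 scale and 14 by more. The 676 include values that could not move. A change of filter leaves the value of a kept gene as it is, and so does averaging for a gene with 1 measured probe set. Apart from genes gained or lost by the filter, the cause of the moves was not tested. No paired analysis was possible because each treatment has 1 array.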
